A study of Mus musculus with 13 samples.

Results

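A list of 36 mouse genes encoding the protein-folding machinery of the endoplasmic reticulum (ER) and the unfolded protein response was followed in C2C12 myotubes treated with palmitoylethanolamide (PEA), a fatty acid amide. The genes were chosen by symbol and sorted by what their proteins do into 4 sensors and transcription factors, 12 chaperones and co-chaperones, 8 oxidoreductases and isomerases, 9 degradation genes and 3 translocon genes. Of the 36, 35 were found among the 16382 genes of the tables and all 35 passed the filter on low counts, among 13142 genes tested. The degradation gene Derl3 was not analysed here.

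C2C12 is a mouse myoblast line, here wild type (WT), whose cells fuse into myotubes in low serum. On day 8 of differentiation, myotubes received vehicle (DMSO, group CON) or 10 μM PEA (group PEA), and RNA was taken 24 h later for poly-A RNA-seq, giving 6 CON and 6 PEA libraries. The wells were technical duplicates in repeats of 1 experiment with 1 cell line, so the 6 libraries of a group are not 6 independent repeats. Which libraries share a repeat is not given in the labels, and no fit grouped the duplicates. P-values therefore measure the spread between these libraries, part of which may be technical, and may be too small. Libraries held 12354845 to 50397444 estimated counts, with CON 1 the deepest and all others at or below 22363990. The lowest estimated count of any member in any library was 91, for Ero1b.

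Secreted and membrane proteins enter the ER through the translocon, fold with the help of chaperones and disulfide-forming enzymes, and are sent for degradation in the cytosol if folding fails. When unfolded proteins accumulate, the sensors ATF6, IRE1 and PERK, encoded by Atf6, Ern1 and Eif2ak3, leave BiP, and transcription of folding and degradation genes rises. In muscle this system is known to be active as myoblasts differentiate and to serve the folding of secreted matrix and membrane proteins. ATF6 is cleaved, and IRE1 splices Xbp1 mRNA, to become active, and neither event is seen in a count per gene.

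Elements for ATF6 and XBP1 lie in the promoters of many of these genes and are printed here because members with and without them are compared below. Promoter windows of 250 bases before to 50 bases after the start site were taken from RefSeq (GRCm38.p6) for 30 of the 35 members, not for Atf6, Derl1, Hyou1, Manf and Sec61a1. Each window was searched on both strands for the ER stress element ERSE (CCAAT, 9 bases, CCACG), for ERSE-II (ATTGG, 1 base, CCACG) and for the XBP1 element UPRE (TGACGTGG). Capitals mark these letters in the following stretches, written 5′ to 3′ on the strand of the gene, so that CGTGG followed by ATTGG is an ERSE in reverse. Coordinates are those of the exact match of the window in GRCm39, and flanks are 20 bases, or 5 bases where a longer stretch would touch an annotated exon.
Hspa5 (ERSE, bases -65 to -47 from the start site, chr2:34662032-34662060, + strand): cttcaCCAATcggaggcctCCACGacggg
Hsp90b1 (ERSE, bases -107 to -89, chr10:86541392-86541420, - strand): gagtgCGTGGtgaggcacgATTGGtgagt
Hsp90b1 (ERSE, bases -212 to -194, chr10:86541497-86541525, - strand): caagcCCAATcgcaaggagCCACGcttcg
Calr (ERSE, bases -162 to -144, chr8:85573684-85573742, - strand): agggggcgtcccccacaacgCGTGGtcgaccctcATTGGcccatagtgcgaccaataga
Creld2 (ERSE, bases -126 to -108, chr15:88703703-88703761, + strand): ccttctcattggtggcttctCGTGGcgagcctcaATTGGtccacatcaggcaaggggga
Pdia6 (ERSE, bases -98 to -80, chr12:17316472-17316530, + strand): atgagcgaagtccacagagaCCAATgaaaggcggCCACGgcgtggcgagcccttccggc
Herpud1 (ERSE-II, bases -52 to -42, chr8:95113000-95113020, + strand): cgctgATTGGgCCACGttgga
Txndc5 (UPRE, bases -138 to -131, chr13:38712016-38712033, - strand): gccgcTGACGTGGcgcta
Syvn1 (ERSE, bases -44 to -26, chr19:6096557-6096585, + strand): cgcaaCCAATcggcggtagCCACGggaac
Canx (ERSE, bases -145 to -127, chr11:50216622-50216650, - strand): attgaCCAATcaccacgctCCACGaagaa
Dnajc3 (ERSE, bases -105 to -87, chr14:119175219-119175277, + strand): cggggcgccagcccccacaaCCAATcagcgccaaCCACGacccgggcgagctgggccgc
Ero1b (ERSE, bases -201 to -183, chr13:12580543-12580601, + strand): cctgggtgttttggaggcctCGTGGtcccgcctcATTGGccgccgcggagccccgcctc
The first 8 stretches belong to 7 members that were higher in PEA, and the last 4 to Syvn1, Canx, Dnajc3 and Ero1b, whose changes did not pass the test. The Hspa5 stretch and the Hsp90b1 stretch nearer to the start site lie in exons that GENCODE gives to longer transcripts of the same genes. The farther Hsp90b1 stretch lies in an exon of Ttc41, that of Syvn1 in one of D530017H19Rik, that of Canx in one of Gm73210 and that of Txndc5 in one of Gm31834.

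Some ER folding genes were higher after PEA, by small amounts, and most of the list did not pass the test. Of the 35 members tested, 11 were called higher in PEA, 0 lower and 24 not called (edgeR quasi-likelihood test, Benjamini-Hochberg adjusted p below 0.05). That is 31.4% of the members called higher, beside 6.31% of all genes tested called higher and 4.74% called lower, 11.0% in either direction. At an unadjusted p below 0.05 edgeR gave 21 members higher and 0 lower, beside 14.3% and 13.1% of all genes tested. DESeq2 called 12 higher and 0 lower, beside 7.48% and 7.03% of all genes it tested. The log2 fold change was above 0 in 32 of the 35, beside 51.3% of all genes tested, and its median over the members was 0.13, beside 0.01 over all genes. In 5 members, Hspa5, Hsp90b1, Pdia6, Txndc5 and Herpud1, every PEA library exceeded every CON library, beside 2.53% of all genes with no overlap and PEA higher and 1.81% with no overlap and PEA lower.

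The calls were uneven among roles. The chaperones had 6 of 12 called higher (median log2 fold change 0.15) and the oxidoreductases and isomerases 4 of 8 (median 0.16). The degradation genes had 1 of 8 (median 0.09), the sensors and Xbp1 0 of 4 (median 0.07) and the translocon genes 0 of 3 (median 0.08). DESeq2 also called 0 sensors and 0 translocon genes, and edgeR at an unadjusted p below 0.05 gave 1 of each, higher in PEA. The difference between roles was not tested.

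**Figure D1:**
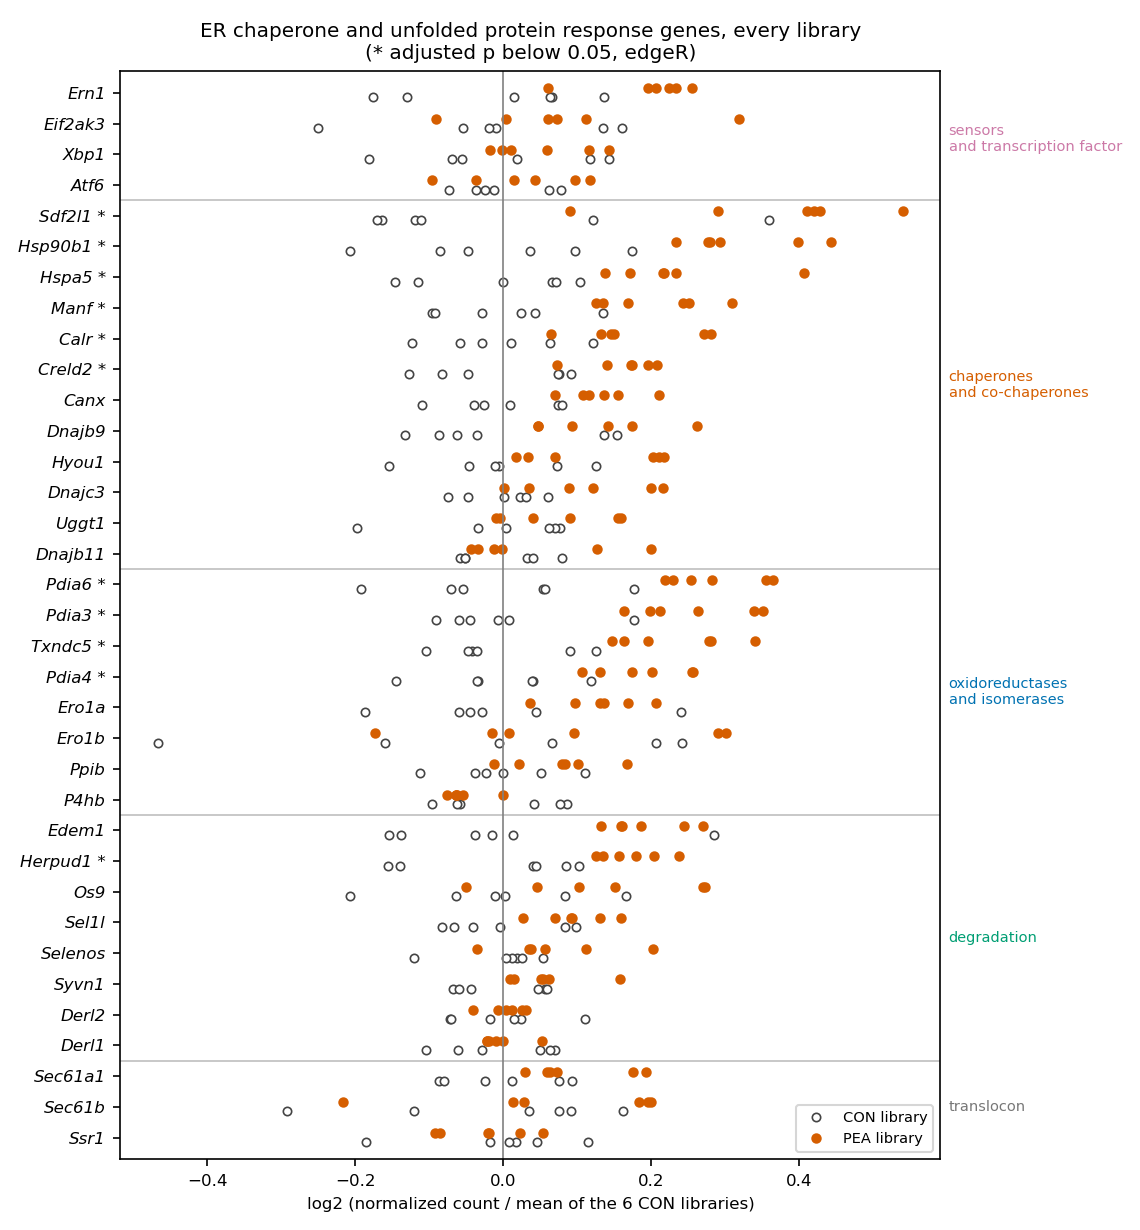
Log2 of the normalized count of each of the 35 members in each library, relative to the mean of the 6 CON libraries, with open points for CON and filled points for PEA, grouped by role. Asterisks mark the 11 members with adjusted p below 0.05. In the upper rows of the chaperones and of the oxidoreductases the filled points lie to the right of most or all open points, and in the lower rows of each role the groups overlap.

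Leaving out 1 library in turn gave between 6 and 13 members called higher. The count was 6 without PEA 5, 7 without PEA 4 and 7 without CON 6. Over all genes the number called also fell in these fits, from 1452 to 794, 963 and 864. Hspa5, Hsp90b1, Manf, Pdia3, Pdia6 and Txndc5 were called in all 12 of these fits. PEA 4 was the highest PEA library in 9 of the 11 called members and PEA 1 the lowest in 9. Among the CON libraries, CON 2 was the highest in 8 of the 11 and CON 3 the lowest in 8.

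Marker lists of cell types were measured in the same libraries. Summed normalized counts of 18 myotube markers were 131123 to 200882 in CON and 139467 to 156688 in PEA, with 0 called higher and 4 lower (Actn2, Tnni2, Tnnt3 and Myh8). DESeq2 called 0 higher and 4 lower, and edgeR at an unadjusted p below 0.05 gave 0 higher and 8 lower. The log2 fold change was below 0 in 17 of these 18 markers, with a median of -0.18. Summed counts of 10 markers of undifferentiated or dividing myoblasts were 7901 to 10754 in CON and 10482 to 11984 in PEA, with 5 called higher and 1 lower. Within that list 6 log2 fold changes were above 0 and 4 below, so the sum does not stand for every marker. The sum over 10 fibroblast and matrix markers was 92214 to 136025 in CON and 117303 to 130430 in PEA, with 2 of the 9 tested called higher and 1 lower. The 6 macrophage markers measured summed to 604 to 822 in CON and 693 to 892 in PEA, and none of the 3 tested was called by edgeR or DESeq2, with 1 higher at an unadjusted p below 0.05. CON 3 was the lowest and CON 2 the highest CON library in the first 3 of these sums, and CON 3 was the highest in the macrophage sum. No marker measured was at 0 in every library. The part of these values in the members' result was not tested, and in such bulk libraries fewer cells of a type and less RNA per cell cannot be told apart.

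The sensors themselves did not pass the test. Atf6 (chr1:170532026-170696208, - strand), a membrane-bound transcription factor, ranged in CON from 2365 to 2627 normalized counts (median 2458) and in PEA from 2330 to 2701 (median 2540). Its log2 fold change was 0.03 ± 0.05 (SE; 95% interval -0.07 to 0.13; edgeR adjusted p = 0.741). The PEA range spans the whole CON range.

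Ern1 (chr11:106283818-106378686, - strand), the gene of the kinase and endonuclease IRE1, ranged in CON from 459 to 569 (median 532) and in PEA from 540 to 618 (median 601). Its log2 fold change of 0.20 ± 0.06 (95% interval 0.06 to 0.33) missed the threshold (edgeR adjusted p = 0.0557). In 5 of the 6 PEA libraries Ern1 was above the highest CON value, and PEA 1 was not. The adjusted p was 0.0394 without CON 1, 0.0420 without CON 2 and 0.0395 without PEA 1, and 0.0711 to 0.126 in the other 9 fits that left out 1 library. It was 0.0894 with GC content and length trends removed and 0.114 after thinning to equal depth.

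Eif2ak3 (chr6:70821461-70882235, + strand), the gene of the kinase PERK, ranged in CON from 349 to 464 (median 411) and in PEA from 390 to 518 (median 435), with a log2 fold change of 0.09 ± 0.08 (95% interval -0.08 to 0.26; edgeR adjusted p = 0.515). PEA 4 lay above all CON libraries and CON 4 below all PEA libraries, and the other values overlap.

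Xbp1 (chr11:5470606-5483027, + strand), whose spliced mRNA encodes the transcription factor of the IRE1 branch, ranged in CON from 2241 to 2808 (median 2511) and in PEA from 2511 to 2807 (median 2605). The log2 fold change was 0.06 ± 0.06 (95% interval -0.06 to 0.17; edgeR adjusted p = 0.552). No PEA library exceeded the highest CON library. Exons of Ccdc117, on the other strand, share 22.0% of the Xbp1 exon bases, and the sources used here do not say whether counting used strand. Of the members, 8 share at least 10% of their exon bases with another gene. These include Hsp90b1 (13.8% with Gm66230) and Pdia3 (13.4% with Catsper2), both called.

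The chaperones held both of the largest single changes, in Sdf2l1 and Hsp90b1, while their median lay close to that of the oxidoreductases. Hspa5 (chr2:34661982-34668880, + strand) encodes BiP, the main ATP-driven chaperone of the ER lumen and the partner of the sensors. It ranged in CON from 13842 to 16456 normalized counts (median 15680) and in PEA from 16851 to 20314 (median 17796). The groups do not overlap, and PEA 4 stands above the other PEA libraries. Hspa5 rose by a log2 fold change of 0.24 ± 0.06 (edgeR adjusted p = 0.0149), or 17.7% higher in PEA. Exons of Rabepk on the other strand share 44.2% of the Hspa5 exon bases. Rabepk itself held 510 ± 43.1 normalized counts in CON and 492 ± 24.5 in PEA (SD, n = 6). The part of the shared bases in the Hspa5 change was not tested.

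Hsp90b1 (chr10:86526073-86541446, - strand), the ER member of the HSP90 chaperones, ranged in CON from 9679 to 12612 (median 11136) and in PEA from 13137 to 15190 (median 13635). The lowest PEA library lies above the highest CON library. The Hsp90b1 log2 fold change of 0.33 ± 0.06 (edgeR adjusted p = 0.0039), 25.3% higher in PEA, came with the smallest adjusted p of the members.

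Calr (chr8:85567946-85573667, - strand), the lectin chaperone and calcium store calreticulin, ranged in CON from 23512 to 27869 (median 25464) and in PEA from 26789 to 31117 (median 28377). All PEA libraries but PEA 1 exceeded the highest CON library. The log2 fold change was 0.18 ± 0.05 (edgeR adjusted p = 0.0370). The call was lost without any 1 of CON 1, CON 3, CON 5, CON 6, PEA 2, PEA 4, PEA 5 and PEA 6, at adjusted p of 0.0556 to 0.0911, and with GC content and length trends removed (adjusted p = 0.0536).

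Sdf2l1 (chr16:16948002-16950252, - strand), a partner of the ER J-domain proteins, ranged in CON from 337 to 486 (median 350) and in PEA from 403 to 551 (median 505). It had the largest log2 fold change of the members, 0.37 ± 0.10 (edgeR adjusted p = 0.0232), and the second widest interval, 0.17 to 0.58. CON 2 lay well above the other CON libraries and 4 PEA libraries exceeded it. The adjusted p was 0.0511 without CON 5, 0.0575 without CON 6, 0.0561 without PEA 4 and 0.0538 without PEA 5.

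Manf (chr9:106715511-106769727, - strand), a secreted BiP cofactor, ranged in CON from 2423 to 2843 (median 2587) and in PEA from 2826 to 3209 (median 2988). Of the PEA libraries, only PEA 2 lay below the highest CON library. Manf rose by a log2 fold change of 0.21 ± 0.05 (edgeR adjusted p = 0.0135), and the adjusted p was 0.0532 with GC content and length trends removed. Rbm15b, on the same strand, shares 32.6% of the Manf exon bases, so its reads may be split between both genes. Rbm15b held 1395 ± 75.2 normalized counts in CON and 1337 ± 70.8 in PEA (SD, n = 6).

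Creld2 (chr15:88703795-88710890, + strand), an ER protein with disulfide exchange motifs, ranged in CON from 1015 to 1181 (median 1120) and in PEA from 1166 to 1280 (median 1250). All PEA libraries but PEA 1 exceeded the highest CON library. The log2 fold change was 0.17 ± 0.05, with the adjusted p nearest to the threshold among the called members (edgeR adjusted p = 0.0436). The call was lost without any 1 of CON 1, CON 3, CON 6 and PEA 2 to PEA 6 (adjusted p of 0.0661 to 0.102), without the filter on low counts (0.0530), after thinning to equal depth (0.0745) and with GC content and length trends removed (0.0623).

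Of the other 6 chaperones, Dnajb9, a J-domain protein that returns IRE1 to BiP, ranged in CON from 740 to 903 (median 785) and in PEA from 838 to 973 (median 880). Its log2 fold change was 0.14 ± 0.06 (edgeR adjusted p = 0.161), and 2 PEA libraries exceeded the highest CON library. Canx, the membrane-bound lectin chaperone calnexin, had a log2 fold change of 0.14 ± 0.04 and missed the threshold by little (edgeR adjusted p = 0.0548). It was called by DESeq2 (adjusted p = 0.0228), by limma-voom (0.0428) and with at least 10 counts in every library (0.0482), and by edgeR without CON 4 (0.0397). In the other 11 fits that left out 1 library the adjusted p was 0.0505 to 0.127, and with GC content and length trends removed the log2 fold change was 0.08 and the adjusted p 0.179. Hyou1, a large nucleotide exchange factor for BiP, was at 0.13 ± 0.05, Dnajc3 at 0.12 ± 0.05, Uggt1, the folding sensor that adds glucose back to glycoproteins, at 0.08 ± 0.05 and Dnajb11 at 0.04 ± 0.05, all not called.

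**Figure D2:**
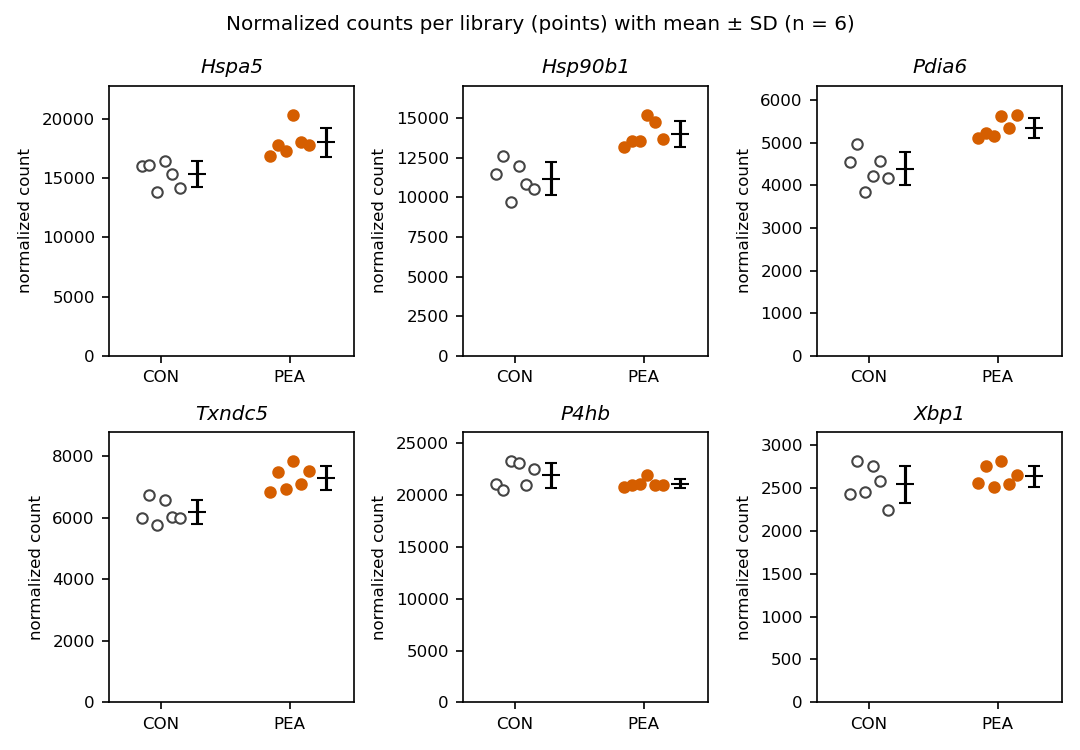
Normalized counts per library, on axes that start at 0, for Hspa5, Hsp90b1, Pdia6, Txndc5, P4hb and Xbp1, with the mean ± SD of 6 libraries beside the points. The CON and PEA points are apart in the first 4 genes and overlap in P4hb and Xbp1.

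Of the oxidoreductases and isomerases, which form and rearrange disulfide bonds or turn proline bonds, 4 of 8 were called. Pdia6 (chr12:17316533-17335913, + strand), a disulfide isomerase that works with BiP, ranged in CON from 3843 to 4964 (median 4392) and in PEA from 5108 to 5654 (median 5285). The groups do not overlap. Pdia6 rose by a log2 fold change of 0.29 ± 0.06 (edgeR adjusted p = 0.0049), or 22.1% higher in PEA.

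Pdia3 (chr2:121244149-121270339, + strand), the isomerase that serves the calnexin and calreticulin cycle, ranged in CON from 8300 to 9992 (median 8680) and in PEA from 9896 to 11275 (median 10424). The highest CON library, CON 2, stood apart from the other 5 and only PEA 2 of the PEA libraries lay below it. The log2 fold change was 0.26 ± 0.05 (edgeR adjusted p = 0.0057).

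Txndc5 (chr13:38684055-38712800, - strand), a disulfide isomerase with thioredoxin domains, ranged in CON from 5751 to 6745 (median 6019) and in PEA from 6848 to 7832 (median 7294). The groups do not overlap, and the log2 fold change was 0.24 ± 0.05 (edgeR adjusted p = 0.0078).

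Pdia4 (chr6:47770077-47790462, - strand), a disulfide isomerase, ranged in CON from 2123 to 2548 (median 2351) and in PEA from 2527 to 2803 (median 2672), with only PEA 1 below the highest CON library. Its log2 fold change was 0.19 ± 0.05 (edgeR adjusted p = 0.0187), and the adjusted p was 0.0507 without PEA 5.

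P4hb (chr11:120451122-120464538, - strand), the archetypal protein disulfide isomerase and a subunit of collagen prolyl hydroxylase, was not called. It ranged in CON from 20481 to 23247 (median 21785) and in PEA from 20769 to 21893 (median 20959), with a log2 fold change of -0.05 ± 0.04 (95% interval -0.14 to 0.04; edgeR adjusted p = 0.488). Exons of Gm57341, on the other strand, share 21.2% of its exon bases, and that gene was not used here. The whole interval lies below that of Pdia6 (0.17 to 0.41). The ratio of Pdia6 to P4hb normalized counts within a library was 0.165 to 0.242 in CON and 0.244 to 0.270 in PEA. That of Hsp90b1 to P4hb was 0.416 to 0.616 in CON and 0.633 to 0.703 in PEA. The groups overlapped in the other 3 ratios computed, Hsp90b1 to Canx (1.006 to 1.376 in CON and 1.249 to 1.380 in PEA), Hspa5 to Syvn1 (10.1 to 12.5 and 11.8 to 14.4) and Hspa5 to Xbp1 (5.66 to 6.62 and 6.46 to 7.24). The ratios were chosen with the values known, so they are given without a test.

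The ER oxidases and the prolyl isomerase of the list were not called. Ero1a, which recharges the disulfide isomerases, had a log2 fold change of 0.13 ± 0.06 (edgeR adjusted p = 0.175), and the adjusted p was 0.0351 without CON 3, its highest CON library. Its paralog Ero1b was at 0.09 ± 0.12 and Ppib, a prolyl isomerase, at 0.08 ± 0.05. Ero1b held the fewest counts of the members and the widest interval, -0.17 to 0.34.

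Among degradation genes, Herpud1 (chr8:95113022-95123141, + strand), which organizes the ubiquitin ligase complex of the ER membrane, was called. It ranged in CON from 2246 to 2685 (median 2577) and in PEA from 2728 to 2950 (median 2810), and the groups do not overlap. The log2 fold change was 0.18 ± 0.05 (edgeR adjusted p = 0.0348). Without any 1 of CON 3, CON 6, PEA 2, PEA 4, PEA 5 and PEA 6 the adjusted p was 0.0638 to 0.0832.

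Edem1, a lectin that passes misfolded glycoproteins to degradation, had a log2 fold change of 0.19 ± 0.07 (edgeR adjusted p = 0.0678). CON 4, at 915 normalized counts, lay above all other libraries, and without it the log2 fold change was 0.26 and the adjusted p 0.0083. The lectin Os9 was at 0.14 ± 0.07, the ligase scaffold Sel1l at 0.10 ± 0.04, Selenos, a selenoprotein of the retrotranslocation complex, at 0.07 ± 0.05 and the ubiquitin ligase Syvn1 at 0.06 ± 0.04. The derlins, proposed parts of the exit channel, showed the smallest values, with Derl2 at 0.01 ± 0.04 and Derl1 at -0.00039 ± 0.04 (95% interval -0.09 to 0.09). None of these 7 was called.

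The translocon genes Sec61a1 and Sec61b, subunits of the protein-conducting channel, had log2 fold changes of 0.10 ± 0.05 and 0.08 ± 0.08. Ssr1, a subunit of the translocon-associated protein complex, was at -0.02 ± 0.05, and none of the 3 was called.

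**Figure D3:**
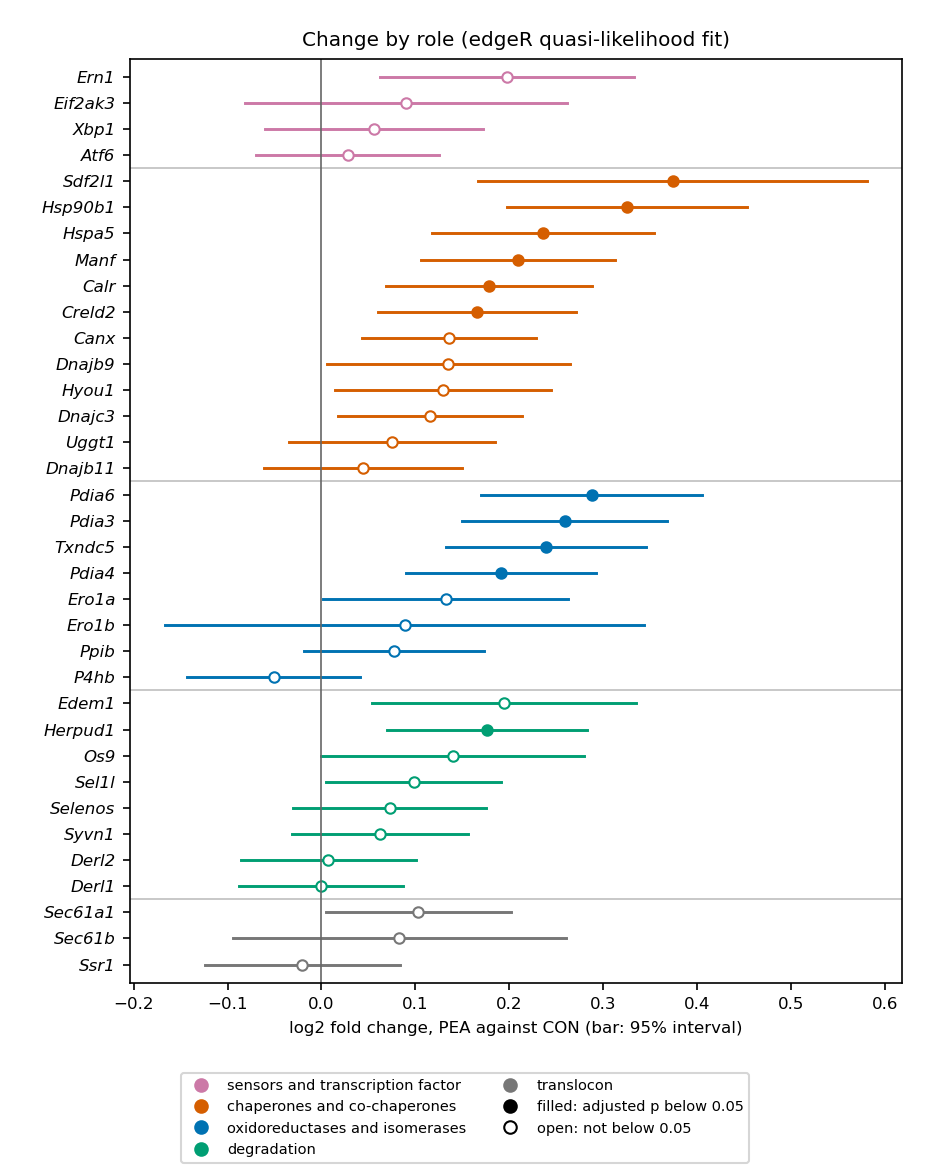
Log2 fold change of PEA against CON with its 95% interval for each of the 35 members, grouped and coloured by role. Filled points have an adjusted p below 0.05. Filled points occur among chaperones (6), oxidoreductases (4) and degradation genes (Herpud1), and among the 4 sensors only the interval of Ern1 leaves out 0.

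Together the members made up 0.815 ± 0.028% of all normalized counts in CON and 0.918 ± 0.036% in PEA (SD, n = 6), with every PEA library (0.868% to 0.969%) above every CON library (0.782% to 0.849%). The spread among libraries was small. The coefficient of variation of a member over 6 libraries was 6.67% in CON and 5.10% in PEA at the median member and was highest for Ero1b, at 17.1% and 12.8%.

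Levels between members were compared as normalized counts per kilobase of merged exons. In CON the highest level was that of Calr (6717 ± 408 per kilobase, SD, n = 6), followed by P4hb (5885 ± 324), Hspa5 (2757 ± 197), Pdia3 (1879 ± 129) and Hsp90b1 (1828 ± 172). Pdia3 and Hsp90b1 are closer than their SDs. The lowest were Ero1b (26.2 ± 4.49), Ern1 (51.3 ± 4.27), Eif2ak3 (65.4 ± 6.56) and Edem1 (79.1 ± 9.17). With the longest transcript as length the level of Sdf2l1 stayed at 340 per kilobase and the others were higher, Hsp90b1 (3430) passed Hspa5 (3067), and Manf went from 213 to 429 per kilobase.

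**Figure D4:**
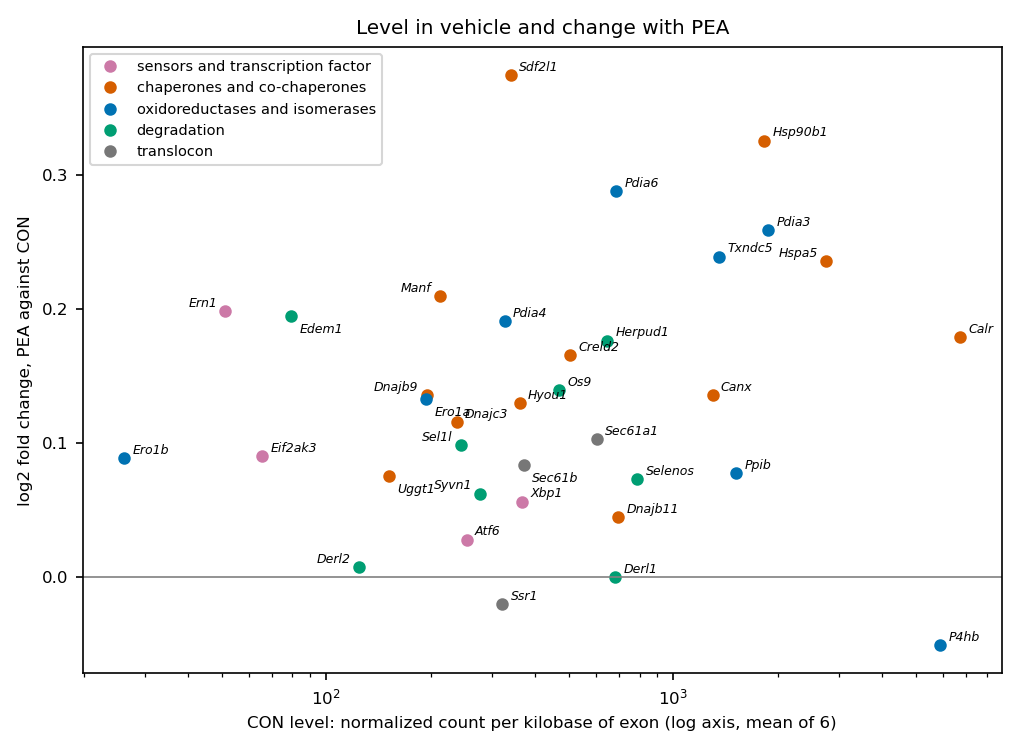
Mean level in CON, as normalized counts per kilobase of exon on a log axis, against the log2 fold change in PEA for each member, coloured by role. Calr and P4hb lie close together at the highest levels, at log2 fold changes of 0.18 and -0.05, and the sensors lie at low to middle levels, at or below 0.20.

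The promoter elements printed above were counted in all promoter windows. ERSE was found in 39 of 32851 promoter windows (0.119%) and in 9 of the 30 members with a window, namely Calr, Canx, Creld2, Dnajc3, Ero1b, Hsp90b1, Hspa5, Pdia6 and Syvn1. ERSE-II was in 12 windows (0.0365%) and in the members Herpud1 and Dnajb11, in the latter 8 to 18 bases after the start site. UPRE was in 222 windows (0.676%) and in Txndc5 alone among members. No matches in members overlapped each other. Since some of these genes are known for such elements, their presence was no independent finding.

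Within the members, ERSE or ERSE-II was held by 6 of the 10 called members that have a window and by 5 of the 20 that were not called. The median log2 fold change was 0.17 over the 11 members with ERSE or ERSE-II and 0.10 over the 19 without. Sdf2l1, Pdia3 and Pdia4, all called, had no match, Manf, also called, had no window, and Syvn1 and Dnajc3 had an ERSE and log2 fold changes of 0.06 and 0.12. Outside the list, 16 tested genes held ERSE or ERSE-II. Of these, edgeR called 0 higher and 1 lower, Hnrnpa3, and at an unadjusted p below 0.05 gave 3 higher and 1 lower. DESeq2 called 0 higher and 1 lower. Their median log2 fold change was 0.13, and 0.24 over the 10 with ERSE, of which 5 had CON means of only 8.02 to 27.1 normalized counts. A match is a run of letters and no evidence of binding.

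**Figure D5:**
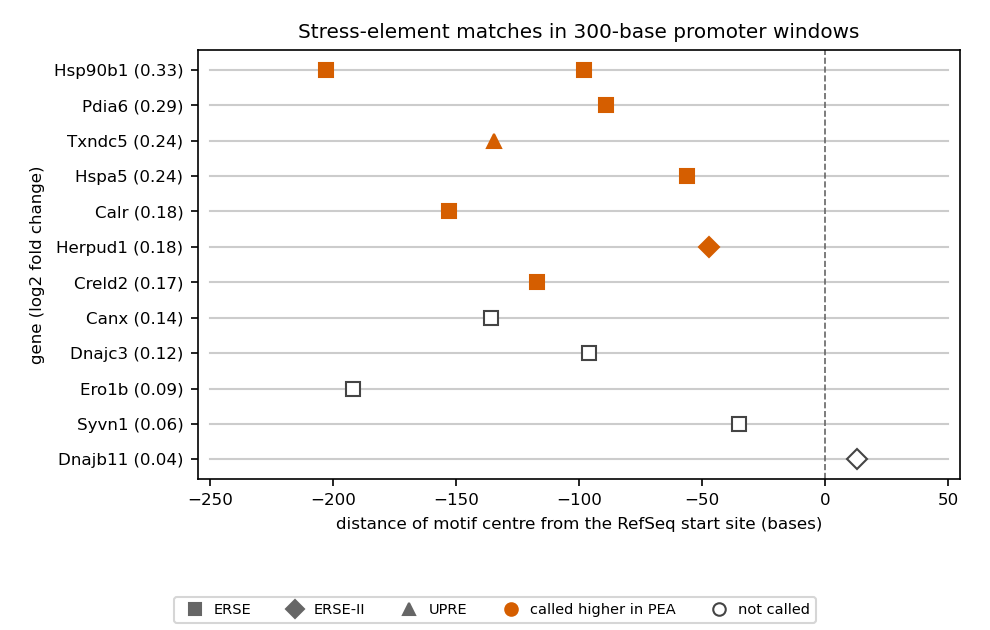
Position of the centre of each ERSE, ERSE-II or UPRE match relative to the RefSeq start site (0) in the windows of 12 members, ordered by log2 fold change, which stands beside each gene. Filled orange symbols are members called higher in PEA. Only members with a match are drawn, so Sdf2l1, Pdia3, Manf and Pdia4, which were also called, are absent. Of the 12 drawn, the 7 with the largest changes are the filled ones, and the call itself depends on the size of the change.

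Sorted by the branch to which textbooks assign the target genes, 6 of 8 genes assigned to ATF6 were called higher (Hspa5, Hsp90b1, Calr, Pdia4, Creld2 and Herpud1; median log2 fold change 0.18). Of 7 assigned to XBP1, 2 were (Pdia6 and Serp1; median 0.14), beside 6.31% of all genes tested. The 6 genes named for ATF6 and Pdia6 are members, so their calls are those already given above and add no result. At an unadjusted p below 0.05 edgeR gave all 8 of the first list and 6 of the 7 of the second higher, so the lists were closer there, and their difference was not tested. Many of these genes answer to more than one branch, so the lists do not separate them. The PERK and ATF4 branch, of which only the kinase is a member, had 6 of 12 other genes called higher and 0 lower. The shares over all genes tested were 6.31% and 4.74%, and the median over the 12 was 0.32. DESeq2 called 7 of the 12 higher and 0 lower, and edgeR at an unadjusted p below 0.05 gave 10 higher and 1 lower.

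In that branch, Trib3, a pseudokinase that ATF4 induces, had 241 to 967 normalized counts in CON (median 366) and 745 to 1140 in PEA (median 1093), a log2 fold change of 1.13 ± 0.26 (edgeR adjusted p = 0.0125). In 4 of the 6 PEA libraries it exceeded the highest CON library. In all 6 called genes of the branch CON 2 was the highest CON library and lay above the lowest PEA library, and the other CON libraries lay below all PEA libraries. Without CON 2, 9 of the 12 were called higher and without PEA 5, 4 were (edgeR, fits added after the values were seen). In the normalized counts 0 of the 12 genes had groups that do not overlap. Chac1, a glutathione-degrading enzyme, rose by 0.72 ± 0.14 (adjusted p = 0.0045), Sesn2 by 0.50 ± 0.11 (0.0096) and Asns, asparagine synthetase, by 0.49 ± 0.11 (0.0104). Ddit3, the gene of CHOP, rose by 0.33 ± 0.10 (edgeR adjusted p = 0.0454), and Atf4 mRNA, at 0.24 ± 0.08, was not called (adjusted p = 0.0585). The call of Ddit3 held in 3 of the 12 fits that left out 1 library, and in the others the adjusted p reached 0.113. The remaining called gene was Atf3. These genes also answer to amino acid shortage, which was not measured.

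Other genes of the ER were called in both directions. Over 115 genes of 6 further lists, 6 were called higher and 6 lower (5.22% each, beside 6.31% and 4.74% of all genes tested), with a median log2 fold change of 0.01. Among 29 other luminal chaperones and oxidoreductases, Pdia5 (0.46 ± 0.10), Rcn1 (0.23 ± 0.04) and Fkbp9 (0.20 ± 0.05) were called higher and the prolyl hydroxylase subunit P4ha1 (-0.13 ± 0.04) lower. In this list 23 of the 29 log2 fold changes were above 0 (median 0.07), DESeq2 called 6 higher and 1 lower, and edgeR at an unadjusted p below 0.05 gave 9 higher and 1 lower. Serpinh1, the collagen chaperone, was at 0.07 ± 0.05 (edgeR adjusted p = 0.369). Of 12 other regulators of the response, Creb3l2 was called higher, at 0.18 ± 0.05.

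Among 17 genes of glycosylation and glucose trimming, 0 were called higher and Dad1, a subunit of oligosaccharyltransferase, lower (-0.20 ± 0.06). Here DESeq2 called 1 higher and 1 lower, as edgeR did at an unadjusted p below 0.05. Among 15 other genes of translocation and signal cleavage, Serp1 was called higher and Ssr4 (-0.24 ± 0.05) and Spcs1 (-0.18 ± 0.05) lower. Among 24 other degradation genes, Rhbdd1 (0.31 ± 0.08) was called higher and Fam8a1 (-0.22 ± 0.05) lower. Among 18 genes of the ER to Golgi coat, 0 were called higher and Sar1a (-0.22 ± 0.05) lower, with 0 higher and 2 lower by DESeq2 and 1 higher and 2 lower by edgeR at an unadjusted p below 0.05.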

How the data were processed

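RNA-seq of 12 libraries of C2C12 myotubes was analysed. The 13 label entries include PEA 2 and its top up, which share 1 set of values and were counted as 1 library. Per the labels and methods, the authors removed reads with a low Phred score, aligned the rest to mm39 with STAR 4.4.1d and quantified genes in Partek Flow against the Ensembl annotation. One deposited table gives an unnormalized estimated count per gene and library (70.2% of values above 0 are not whole). The other deposited table gives a signal, which is the estimated count after division by a library's own factor (median ratio of DESeq2), called normalized count here. Whether counting used strand is not given in the sources used here. The tables hold 16382 genes up to identifier ENSMUSG00000089774, and symbols and positions of 16343 came from GENCODE (GRCm39).

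Estimated counts were rounded and fitted over all genes with edgeR 4.0.16 in R 4.3.3 (quasi-likelihood test, TMM, default filter, 13142 genes tested, Benjamini-Hochberg adjustment, threshold 0.05). SE is the log2 fold change over the root of F. The biological coefficient of variation was 0.106. TMM factors were 0.988 to 1.02. DESeq2 1.42.0, limma 3.58.1 and the settings given under the alternatives were tried, among them each library left out in turn, and the fit was tested on simulated data. Tables and figures used Python 3.11.15, pandas 2.3.3 and matplotlib 3.10.9.

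The members and lists were chosen with earlier results of these data known, so no test over a list was made. Values by library are given for members called and for Atf6, Ern1, Eif2ak3, Xbp1, Hspa5, Dnajb9 and Herpud1, whatever their result. Of the other ER lists and the myotube markers, called genes are named, at most 4 with the smallest p. Ddit3, Atf4, Trib3 and Serpinh1 are always named, and called markers of the other cell types are not named. P4hb values, Derl1 and Edem1 details and Atf3 were added after the values were seen. Protein sequence features were not analysed here. Intervals cover the spread between libraries only.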

Additional observations from a re-analysis of the deposited data

Results flagged for a closer look

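In 8 of the 70 groups of 6 libraries (35 members in CON and in PEA), the highest or lowest library stood apart from the others by more than Dixon's 95% critical value for the gap as a share of the range. Chance flags about 1 in 20 groups. These were Ern1 in PEA 1, low at 539.9 normalized counts beside 593 for the next library, and Hspa5 in PEA 4, high at 20313.6 beside 18012. Pdia3 in CON 2 was high at 9992 beside 8887, and P4hb in PEA 4 high at 21893 beside 21093. Edem1 in CON 4 was high at 914.5 beside 758, and Syvn1 in PEA 2 high at 1511 beside 1414. Derl1 in PEA 6 was high at 3870 beside 3732, and Selenos in CON 6 low at 1076 beside 1172. Without PEA 4, Hspa5 remained called, and without CON 2, Pdia3 remained called.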

How the results depend on the processing

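No member changed direction of a called value under any alternative. The 11 members called higher were also the 11 called with median-of-ratios size factors and, beside them, Canx was called by DESeq2, by limma-voom and with at least 10 counts in every library (12 members). Without a filter, and with libraries thinned to the smallest total, 10 were called, and Creld2 was lost. With GC content and exon length trends removed, 8 were called, and Calr, Creld2 and Manf were lost at log2 fold changes of 0.15, 0.14 and 0.15. With that correction and the replicate number as a block, 6 were called, and Herpud1 and Pdia4 were lost too. At an adjusted p below 0.01, 4 were called. Leaving out 1 library gave 6 to 13, and of 420 member values in these fits 27 lost and 6 gained a call. The median log2 fold change of oxidoreductases and isomerases moved from 0.16 to 0.12 with GC content and length trends removed, also with the block (0.12). In the same fit that of the sensors moved from 0.07 to 0.03, of translocon genes from 0.08 to 0.05, of degradation genes from 0.09 to 0.06 and of chaperones from 0.15 to 0.12, and that of all genes tested from 0.01 to -0.03. Without PEA 4 the sensors' median was 0.04, and without CON 1 that of the translocon genes 0.03. The cause was not tested. In the PERK and ATF4 branch, counts chosen after seeing the data were 4 (without PEA 5) to 9 (without CON 2) called higher with 1 library left out. Without CON 4, 6 were called higher and 1 lower. Over the whole table edgeR called 1452 genes, DESeq2 1915, and edgeR without 1 library 778 (without PEA 6) to 2203 (without CON 2).

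The replicate numbers of CON and PEA did not pair the libraries, since deviations of libraries with the same number correlated at -0.0703 to 0.1277 and exceeded 0.1 in 2 of 6 pairs. With the replicate block alone, the same 11 members were called, and no call changed. This block is not the repeat of the experiment, which the labels do not give, so the fit cannot test the repeat. Of the 12 libraries, 2 (CON 5 and PEA 2) correlated best with the one of their own number. Levels per kilobase depended on the length used, as given for the members named above.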
